A study of Mus musculus with 20 samples.

Results

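Interleukin-1 family cytokines, their receptors and the inflammasome were followed in bulk RNA from mouse medial prefrontal cortex after a local injection. The 10 genes were chosen by name, namely the cytokines Il1a, Il1b, Il18 and Il33, the receptor subunits Il1r1 and Il1rap, the inhibitor Il18bp, and the inflammasome components Nlrp3, Pycard and Casp1. All 10 were listed in both of the authors' deposited tables, out of 20375 genes in all. C57BL/6 mice had received PBS or CDS into the prefrontal cortex. The labels give CDS as an abbreviation only, and the series title calls this a microglia depletion model. The 20 samples form 4 groups of 5, with PBS and CDS at postnatal day 47, which is 5 days after injection and about 6 weeks of age, and PBS and CDS at postnatal day 84, which is 12 weeks of age and 6 weeks after injection. The labels name no transgene, sex or pooling of animals, and nothing says which samples came from separate animals, so that p-values reflect the spread among these samples, which may be technical.

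Interleukin-1 alpha and beta are cytokines that act through the same receptor, IL1R1, together with the accessory protein IL1RAP, to switch on NF-kB and inflammatory genes. Interleukin-1 beta and interleukin-18 are made as inactive precursors that caspase-1 cuts within the inflammasome, a complex of a sensor such as NLRP3, the adaptor ASC (encoded by Pycard) and caspase-1. Interleukin-1 alpha is active without that cut and is released by damaged cells. In the brain, microglia, the resident macrophages, are a main source of interleukin-1 and inflammasome proteins, while interleukin-33 is made largely by astrocytes and oligodendrocytes.

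For each gene and time the deposited values are the CDS over PBS difference as a log2 fold change, and its q-value, a p-value adjusted for the number of genes. A gene is called where the authors' q was under 0.05. Values per sample and expression levels are not given in these tables, so the depth is unknown, levels cannot be compared between genes, and the tissue label could not be checked against marker levels. Standard errors (SE) and 95% intervals below are those implied by the deposited log2 fold change and q.

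At 5 days 4 of the 10 genes differed between CDS and PBS cortex. Il1a, Pycard, Nlrp3 and Il18 fell, while Il1b, Il33, Casp1, both receptor subunits and Il18bp were not called. None of the 10 was called higher. Over all genes, 5.92% were called in the authors' deposited table at 5 days, 3.18% lower and 2.75% higher, and among protein-coding genes, the class of all 10, the share was 7.09%. The median log2 fold change was -0.31 for the 10 genes, against -0.02 for all genes and 0.00 for protein-coding genes.

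Promoters are shown for the 4 called genes and for 2 that were not called, Il1b and Casp1. Il1a and Il1b are neighbours on chromosome 2, both on the minus strand and 54.6 kb apart, and of the 2 only Il1a was called; Casp1 is the uncalled partner of Nlrp3 and Pycard in the inflammasome. The windows run from 250 bases before to 50 bases after the transcript start (RefSeq, build GRCm38.p6, 5′ to 3′ on the gene's strand), and all 10 genes matched the RefSeq table. Capitals mark the core letters GAGGAA of sites for PU.1, the transcription factor that defines macrophages and microglia, or TTCCTC on the other strand.
Il1a, chr2:129309923-129310222, minus strand: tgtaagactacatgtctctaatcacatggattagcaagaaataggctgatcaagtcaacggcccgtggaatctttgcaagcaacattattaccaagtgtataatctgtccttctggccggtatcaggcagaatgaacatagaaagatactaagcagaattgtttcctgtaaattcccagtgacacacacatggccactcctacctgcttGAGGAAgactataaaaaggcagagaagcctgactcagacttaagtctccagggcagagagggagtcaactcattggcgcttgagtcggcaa
Il1b, chr2:129371090-129371389, minus strand: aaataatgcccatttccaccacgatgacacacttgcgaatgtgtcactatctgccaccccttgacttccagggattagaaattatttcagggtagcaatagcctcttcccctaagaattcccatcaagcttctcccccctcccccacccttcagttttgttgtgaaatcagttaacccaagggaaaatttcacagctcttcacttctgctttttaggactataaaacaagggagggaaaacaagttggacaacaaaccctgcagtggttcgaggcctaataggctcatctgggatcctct
Il18, chr9:50554450-50554749, plus strand: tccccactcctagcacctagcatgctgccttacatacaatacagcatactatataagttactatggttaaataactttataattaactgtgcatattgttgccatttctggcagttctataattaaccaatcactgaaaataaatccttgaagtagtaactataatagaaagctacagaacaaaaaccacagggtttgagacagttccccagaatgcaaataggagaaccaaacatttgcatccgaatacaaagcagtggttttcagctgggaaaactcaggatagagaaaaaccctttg
Pycard, chr7:127993818-127994117, minus strand: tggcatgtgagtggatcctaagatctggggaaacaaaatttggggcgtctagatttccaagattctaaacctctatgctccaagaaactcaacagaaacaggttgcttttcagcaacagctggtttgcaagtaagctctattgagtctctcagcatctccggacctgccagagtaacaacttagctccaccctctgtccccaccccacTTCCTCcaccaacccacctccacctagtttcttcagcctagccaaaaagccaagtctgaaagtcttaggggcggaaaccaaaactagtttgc
Nlrp3, chr11:59542436-59542735, plus strand, the second of its 2 windows: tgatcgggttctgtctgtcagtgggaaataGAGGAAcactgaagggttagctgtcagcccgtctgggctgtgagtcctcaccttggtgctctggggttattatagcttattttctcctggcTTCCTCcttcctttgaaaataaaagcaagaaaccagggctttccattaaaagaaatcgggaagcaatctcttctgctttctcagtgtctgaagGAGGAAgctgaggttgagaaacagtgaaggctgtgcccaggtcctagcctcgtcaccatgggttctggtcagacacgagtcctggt
Casp1, chr9:5298267-5298566, plus strand: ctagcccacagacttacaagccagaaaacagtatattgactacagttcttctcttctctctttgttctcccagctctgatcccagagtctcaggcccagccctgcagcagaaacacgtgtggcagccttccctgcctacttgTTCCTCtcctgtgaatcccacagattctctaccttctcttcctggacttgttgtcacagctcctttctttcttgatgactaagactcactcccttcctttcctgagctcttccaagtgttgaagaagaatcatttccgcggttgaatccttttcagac

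With positions counted from the transcript start and given for the first letter of a match, the core letters lay at -41 in Il1a, at -42 in Pycard, and at -220, -129 and -36 in this Nlrp3 window. They were also present in Casp1, at -108, and in Il33, neither of which was called. They were absent from the called Il18, from the first window of Nlrp3, and from Il1b, Il1r1, Il1rap and Il18bp. The letters therefore do not separate called from uncalled genes among the 10. Of 32851 promoter windows of the same length, 28.3% hold these letters. A second motif, TATAAA on either strand, was found in Il1a, Il1b, Il18 and Il33 and in 13.6% of all windows. It lies at -32 in Il1a, at -31 in Il1b, and at -203 and -29 in the first and second windows of Il33. In Il18 it lies at -175, on the other strand. The 2 motifs share no letters in the windows shown. A match describes letters, not a bound site, and says nothing of whether the factor acts there. Spi1, which encodes PU.1, was itself not called at either time, at -0.40 at 5 days and -0.36 at 12 weeks (the authors' deposited tables).

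Among the cytokines, Il1a had the largest fall of the 10. In the authors' deposited table its log2 fold change at 5 days was -2.17 (q = 2.13e-10), a level 4.49-fold lower in CDS, with an implied SE of 0.30 and a 95% interval of -2.76 to -1.58. Only 0.294% of all genes had a lower log2 fold change at that time, and its q ranked 50 of 20375. The gene lies at chromosome 2, 129299610 to 129309972 (GRCm38).

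Il1b, the other ligand of the same receptor, stood at -0.10 (q = 0.93, the authors' deposited table). Its implied SE was 0.38, the widest of the 10, with a 95% interval of -0.84 to 0.65. The interval of Il1b did not overlap that of Il1a. A test of the difference between the 2 genes needs values per sample and was not made.

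Il18, the second cytokine that caspase-1 activates, fell by 0.37 in log2 units (q = 0.0215, the authors' deposited table), a level 1.30-fold lower, with an implied SE of 0.11. Its 95% interval of -0.59 to -0.15 lay wholly above that of Il1a. Il18 overlaps Bco2, a carotenoid-cleaving enzyme gene on the opposite strand, which stood at -0.67 (q = 0.0014, the authors' deposited table). The libraries are stranded, but the strand setting of the counting is not given in the sources used here, so that reads of the 2 genes cannot be told apart with certainty, and their part in the Il18 value was not tested. Of the 10 genes, 7 overlap another annotated gene. Of these other genes, Gm45205, opposite to Pycard, stood at -1.04 (q = 0.237) and Numa1, opposite to Il18bp, at -0.05 (q = 0.846, the authors' deposited table). The same limit holds for them. Gm38070, on the same strand as Il1r1, stood at -0.44 (q = 0.772, the authors' deposited table). Strand cannot separate its reads from those of Il1r1, whatever the setting of the counting. The genes that overlap Il1a, Il1b and Il1rap, namely Gm14023, Il1bos and Gm20319, had no values under these names in the authors' deposited tables. Nor did Tex12, which also overlaps Il18 on the opposite strand. Il33, a cytokine held in the nucleus and released on damage, was not called, at 0.41 (q = 0.251, the authors' deposited table), with a 95% interval of 0.01 to 0.81.

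**Figure D1:**
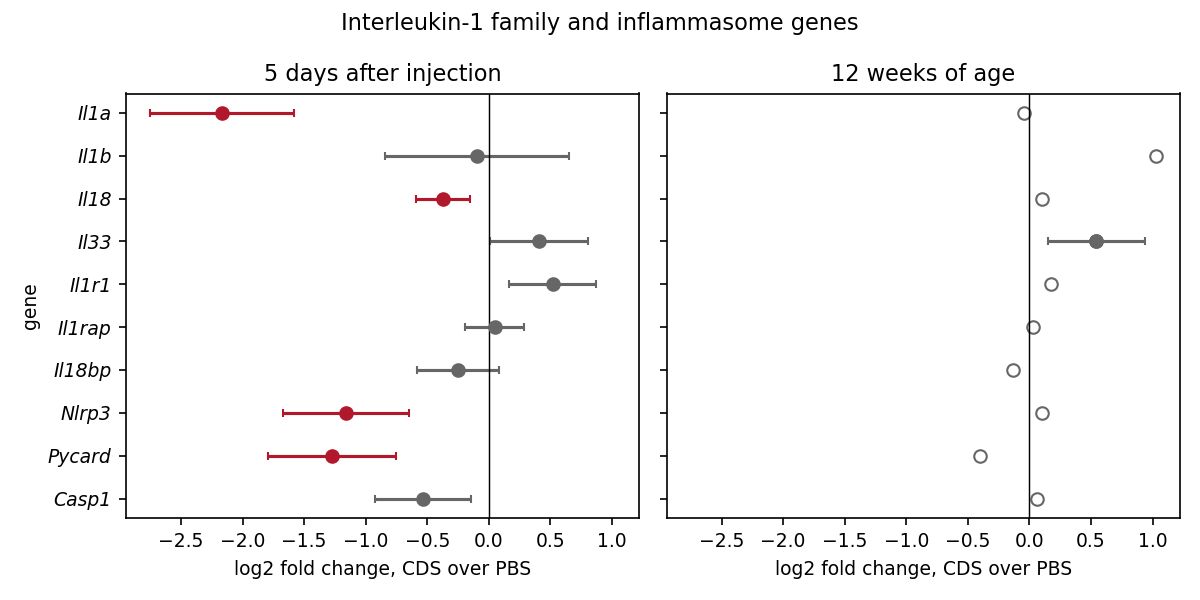
Log2 fold change of CDS over PBS for the 10 genes at 5 days after injection (left) and at 12 weeks of age (right), ordered as cytokines, receptors and inhibitor, and inflammasome. Bars are implied 95% intervals, red points have q under 0.05, and open points at 12 weeks have a tied q from which no interval follows. Il1a lies farthest below 0 at 5 days and near 0 at 12 weeks.

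The inflammasome genes lay on the low side at 5 days. Pycard, the adaptor ASC, fell by 1.27 (q = 0.000158, 2.42-fold lower, the authors' deposited table), with an implied SE of 0.27 and a 95% interval of -1.79 to -0.75. Nlrp3, the sensor, fell by 1.16 (q = 0.000655, 2.23-fold lower, the authors' deposited table), with an implied SE of 0.26 and a 95% interval of -1.67 to -0.65. The 2 falls were alike in size, and their intervals overlapped over most of their length. Casp1, the protease that the complex activates, stood at -0.53 (q = 0.0867, the authors' deposited table) and was not called. Its 95% interval of -0.92 to -0.15 excludes 0 before adjustment and overlaps those of Pycard and Nlrp3.

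Neither receptor subunit was called. Il1r1, the signalling receptor, stood at 0.52 (q = 0.0586, the authors' deposited table), with a 95% interval of 0.17 to 0.87, just short of the threshold and on the high side. Il1rap, the shared accessory subunit, stood at 0.05 (q = 0.886, the authors' deposited table), and its interval of -0.19 to 0.29 bounds any difference more tightly than that of any other gene here except Il18. Il18bp, which binds and blocks interleukin-18, stood at -0.25 (q = 0.448, the authors' deposited table; interval -0.59 to 0.09). Il1r1 and Il33 were the 2 genes of the 10 with intervals wholly above 0.

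Microglial markers were lower at the same time as the called genes. All 19 homeostatic microglia markers were called lower at 5 days, against 3.18% of all genes. The list was chosen with earlier results of these data known, so that this count is not independent support. Spi1, the gene of PU.1, is outside the list and was not called, at -0.40 (q = 0.304, the authors' deposited table), above all 19. Their median was -1.32, with a range of -2.82 to -0.50 in the authors' deposited table. Slc2a5, P2ry13, P2ry12 and Selplg, which had the smallest q, stood at -2.82, -2.45, -2.70 and -2.18. Il1a lay within that range, with 5 markers lower and 14 higher. Pycard had 10 markers lower and 9 higher, and Nlrp3 15 lower and 4 higher. Il18, Il1b, Il33, Il18bp and both receptor subunits lay above all 19, and Casp1 above 18. In bulk tissue, fewer cells of a type and less RNA per cell cannot be told apart, and the part of cell number in these values was not tested.

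Among 6 measured markers of monocytes and neutrophils, cells that also make interleukin-1 beta, Ccr2, a chemokine receptor, rose by 1.26 and Itgal, an integrin, by 1.58, while the colony-stimulating factor receptor Csf3r, which microglia express too, fell by 1.68 (the authors' deposited table). The neutrophil calprotectin genes S100a8 and S100a9 stood at -0.66 and -0.89 (q = 0.71 and 0.704, the authors' deposited table). Of 11 border macrophage markers, the scavenger receptor Cd163 and the lectins Cd209f and Cd209b fell, at -3.62, -5.49 and -4.24, and Cbr2 rose by 1.06 (the authors' deposited table). The other 7 were not called and ranged from -0.38 (Lyve1) to 0.63 (Ms4a7). Cd163, Cd209f and Cd209b were also called lower at 12 weeks, at -2.42, -2.59 and -2.94 (q = 3.15e-20, 0.000452 and 0.0211, the authors' deposited table). Among all genes 3.18% were called lower and 2.75% higher at 5 days, and 20 of 20375 were called lower at 12 weeks. The part of these cells in the Il1b value was not tested.

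Markers of the cells known for Il33 and Il1r1 were mostly not called. Of 9 astrocyte markers Gfap alone rose at 5 days, 2.82-fold, with a list median of 0.00. The 9 endothelial markers ranged from -0.24 to 0.16, none called (the authors' deposited table). The 8 mature oligodendrocyte markers ranged from 0.38 to 0.74 at 5 days and from 0.34 to 0.71 at 12 weeks. None was called, but all 8 lay above 0 at both times. At 5 days 5 of them had an unadjusted p under 0.05, recovered from the deposited q, against 19.1% of all genes. Their part in the Il33 value was not tested. By contrast, all 7 oligodendrocyte precursor markers were called lower at both times, with medians of -2.78 at 5 days and -0.92 at 12 weeks. Of 8 neuronal markers Tubb3 and Eno2 rose, by 0.30 and 0.16 at 5 days (the authors' deposited table). Over all genes 3.18% were called lower and 2.75% higher at 5 days, and 20 of 20375 were called lower at 12 weeks.

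At 12 weeks none of the 10 genes was called, against 0.191% of all genes in the authors' deposited table. Il33 alone had a q below the highest, tied value, at 0.54 (q = 0.777, the authors' deposited table), with an implied SE of 0.20, a 95% interval of 0.15 to 0.94 and a recovered unadjusted p of 0.00706 from the authors' fit across all genes. The other 9 shared the highest q, so that their unadjusted p was at least 0.0134 and no SE follows.

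The order of the genes at 12 weeks was not that of 5 days. Il1b had the highest log2 fold change, 1.03, a level 2.04-fold higher in CDS, and 99.6% of all genes lay below it, but its q in the authors' deposited table was the tied maximum and its SE is at least 0.42. Il1a stood at -0.05, Nlrp3 at 0.10, Il18 at 0.10 and Casp1 at 0.06, all with the tied maximum q in the authors' deposited table. Pycard was the lowest of the 10, at -0.40, Il18bp stood at -0.13, Il1r1 at 0.18 and Il1rap at 0.03 (the authors' deposited table, the same q). The median was 0.08, against 0.00 for all genes. Of the 19 microglia markers 16 lay below 0 at this time, with a median of -0.34, and Slc2a5 alone was called; 15 of them lay below Il1a and 6 below Pycard.

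**Figure D2:**
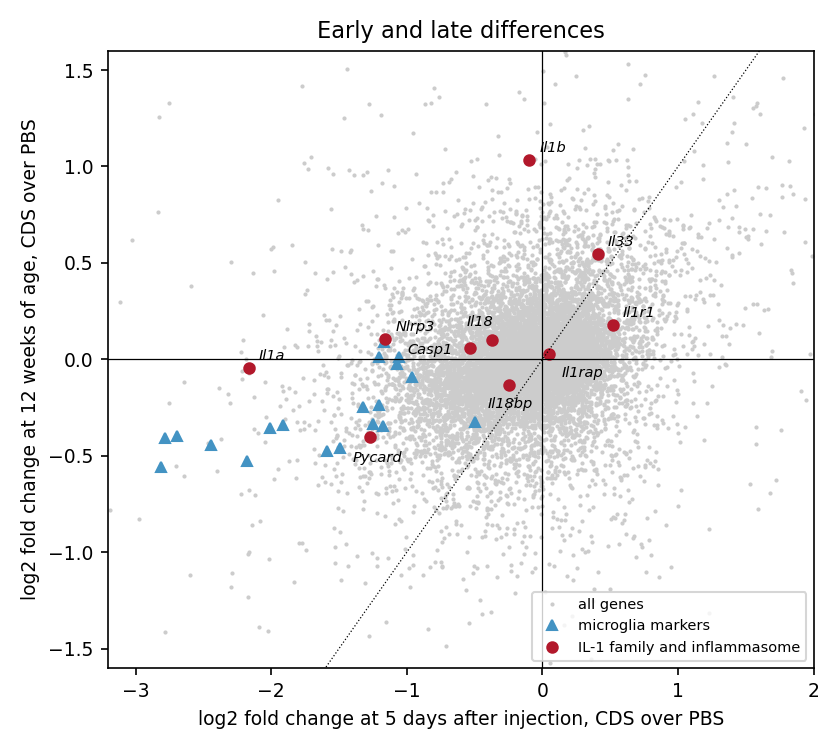
Log2 fold change of CDS over PBS at 12 weeks of age (vertical) against that at 5 days after injection (horizontal), with all genes in grey, 19 microglia markers as blue triangles and the 10 genes in red; the dotted line marks equal values, and 67 genes lie beyond the axes. Il1a and Nlrp3 lie far left of the dotted line near a 12-week value of 0, and Il1b stands at 1.03 on the vertical axis.

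The difference of the CDS effect between times was tested for every gene as the log2 fold change at 12 weeks minus that at 5 days, over the 2 implied SEs; the 2 tables share no samples. For genes with a tied q at 12 weeks, the SE was taken from 5 days or was the smallest that the tie allows, whichever was larger. Il1a differed, by 2.12 with an SE of 0.42 (95% interval 1.29 to 2.95; Benjamini-Hochberg adjusted p = 0.000444 from the z test across all genes). It was the only one of the 10 past the threshold, against 0.432% of all genes, and 0.348% with the 12-week value the higher. The Il1a call rests on the SE assumed at 12 weeks, since with an SE 1.5 times as large the adjusted p was 0.0562.

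Nlrp3 differed by 1.27 with an SE of 0.37, short of the threshold (adjusted p = 0.0985 from the same z test, adjusted across all genes). Il18 differed by 0.47, Pycard by 0.87, Casp1 by 0.59 and Il1b by 1.13, none past the threshold (adjusted p = 0.205, 0.494, 0.587 and 0.648 from the z test, adjusted across all genes). Under the SE assumed at 12 weeks, the 95% intervals of these 5 differences lay above 0 before adjustment, from 0.02 to 2.24 for Il1b, the widest. For Il1b the SE at 12 weeks was the smallest that the tie allows, so that this interval is the narrowest possible and a slightly larger SE would take in 0. For Il1r1, Il1rap, Il18bp and Il33 the differences lay between -0.34 and 0.14. Among the microglia markers 13 of 19 passed the same test, all with the 12-week value higher, and their differences ranged from 0.17 to 2.37; 3 of them exceeded that of Il1a.

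**Figure D3:**
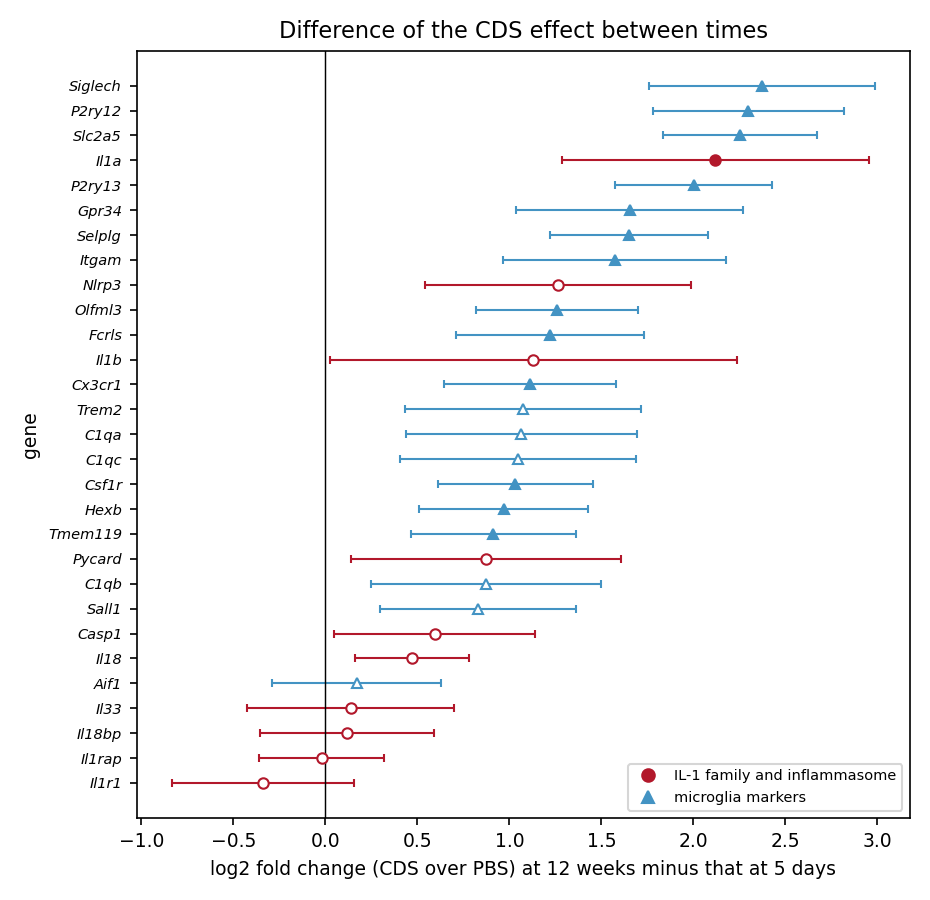
Difference of the log2 fold change of CDS over PBS, 12 weeks minus 5 days, for the 10 genes (red circles) and 19 microglia markers (blue triangles), ordered by size. Bars are 95% intervals from the implied SEs, and filled symbols have an adjusted p under 0.05. Il1a, at 2.12, lies among the markers with the largest differences, and Il1r1 and Il1rap lie below 0.

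The rest of the pathway was read by role, from lists of genes known for each and chosen with earlier results of these data known. Of 23 other inflammasome genes 22 were measured, and 5 fell and none rose at 5 days (list median -0.23, the authors' deposited table), against 3.18% of all genes called lower and 2.75% called higher. P2rx7, the ATP-gated channel that triggers NLRP3, fell by 1.04 (q = 1.06e-12), and Gsdmd, the pore that releases interleukin-1 and lyses the cell, fell by 0.71 (q = 0.00178, the authors' deposited table). Naip6 and Naip5, sensors of bacterial proteins, fell by 1.44 and 1.22 (q = 0.00106 and 0.00369, the authors' deposited table); the Naip genes are near-identical copies, and reads may be split between them. The fifth was the DNA sensor Aim2, at -0.73 (q = 0.0101, the authors' deposited table), named after its values were seen. At 12 weeks none of the 22 was called, against 0.191% of all genes, and P2rx7 stood at -0.32 (q = 0.961, the authors' deposited table). P2rx7 was the only one of the 61 measured pathway genes outside the 10 whose CDS effect differed between times. The difference was 0.72 (adjusted p = 0.0281 from the z test across all genes), and 0.432% of all genes passed that test.

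Casp1 sits in a row of inflammatory caspases on chromosome 9, with Casp4 1.56 kb away and Casp12 8.65 kb beyond it. Casp4, which senses bacterial lipopolysaccharide, stood at -1.09 (q = 0.117) and Casp12 at 0.13 (q = 0.839) at 5 days in the authors' deposited table. None of the row was called, against 5.92% of all genes.

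Il1r1 sits in a cluster of receptor genes on chromosome 1, and none of those measured was called at 5 days, against 5.92% of all genes. The decoy receptor Il1r2, 99.8 kb away, stood at 0.91 (q = 0.116), the interleukin-36 receptor Il1rl2 at 0.20 (q = 0.738), the interleukin-33 receptor Il1rl1 at -0.80 (q = 0.188) and the interleukin-18 receptor subunit Il18rap at 0.13 (q = 0.947) at 5 days in the authors' deposited table. Of the 7 other receptors measured, out of 8, Il1rapl1 alone was called, at -0.30 (q = 0.0147, the authors' deposited table). Among all genes the share called lower was 3.18%. Il1rapl1 is a neuronal synapse organiser related to Il1rap. Of 6 other ligands and antagonists only Il1f5, the interleukin-36 receptor antagonist, was measured, at -0.16 (q = 0.915, the authors' deposited table).

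Downstream of the receptors the counts of called genes stand beside 5.92% called over all genes. None of 19 adaptors, kinases and NF-kB subunits passed at 5 days, where they ranged from -0.29 to 0.25 (list median -0.03, the authors' deposited table), and 4 had an unadjusted p under 0.05, a share close to the 19.1% of all genes. The adaptor Myd88 stood at 0.06 and the NF-kB subunit Nfkb1 at -0.18 (q = 0.929 and 0.113, the authors' deposited table). Of 20 genes known to be induced by interleukin-1, 12 were measured and 1 rose, the prostaglandin E synthase Ptges, by 0.39 (q = 0.0399, the authors' deposited table). The inducible genes Ccl2, Cxcl1, Lcn2 and Icam1 stood at 0.55, 0.52, 1.23 and -0.47 (q = 0.398, 0.668, 0.468 and 0.17, the authors' deposited table). The implied SE of Lcn2 was 0.87. These genes were named after their values were seen and include the highest and lowest of the 12, whose median was 0.10. No gene of these lists was called at 12 weeks, against 0.191% of all genes.

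**Figure D4:**
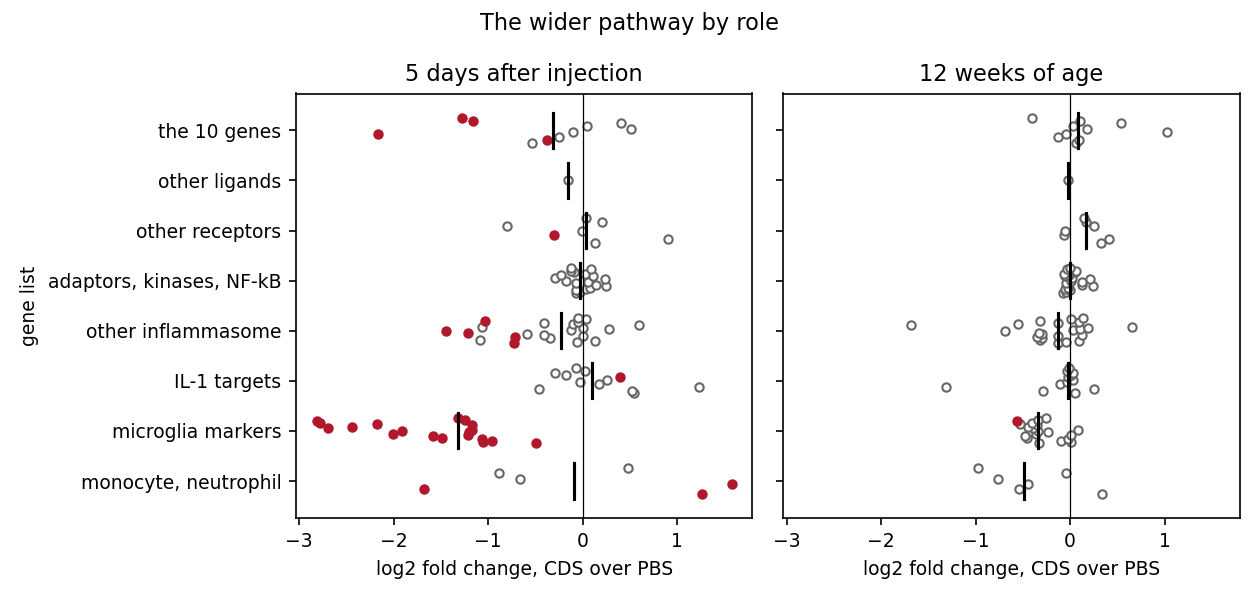
Log2 fold change of CDS over PBS for each measured gene of the lists, by role, at 5 days (left) and 12 weeks (right); filled red points have q under 0.05 and black bars are list medians. At 5 days the called genes of the pathway lie mostly among the 10 genes and the other inflammasome genes, on the low side, and the signalling genes lie between -0.29 and 0.25.

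The genes most like Il1a over both times were sought among 1113 other genes with a symbol that were called at 5 days, by the Euclidean distance of the 2 log2 fold changes. They were Trdn (distance 0.04), Ltc4s (0.05), Fcrl1 (0.07), Ppm1j (0.10) and Lag3 (0.15). Ltc4s, the leukotriene C4 synthase, stood at -2.18 at 5 days (q = 3.11e-20) and 0.00 at 12 weeks, and the immune checkpoint receptor Lag3 at -2.13 (q = 1.13e-07) and -0.20 (the authors' deposited table). The implied SEs of Trdn, Ppm1j and Fcrl1 at 5 days were 0.68, 0.64 and 0.47, so that their nearness to Il1a is loosely known.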

How the data were processed

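Per the labels' protocols, ribosomal RNA was depleted from 400 ng of total RNA before stranded library preparation. STAR, featureCounts and DESeq2 are named with build GRCm38.p5 in the submitters' processing notes as the authors' tools. For versions, filters, shrinkage of fold changes and the adjustment, the sources used here give nothing. Per the file headers, each deposited table pairs a log2 fold change with a q-value for 20375 genes, with 0 columns of values per sample, so depth and its precision are unknown.

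Genes were taken by the deposited symbol; 4083 symbols were blank, of which 4017 took a name from GENCODE M21. The deposited q-values were read as a Benjamini-Hochberg adjustment over all genes, so that p is q times rank over 20375, and the implied SE is the log2 fold change over its normal z. If the deposited fold changes were shrunken, the SE is approximate. At 12 weeks 20103 genes shared the highest q. Python 3.11.15, scipy 1.17.1 and pandas 2.3.3 were used.

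The 10 genes and all lists were chosen with earlier results of these data known. The lists covered other ligands, receptors, signalling, inflammasome and target genes, and markers of microglia, monocytes and neutrophils, border macrophages, astrocytes, oligodendrocytes and their precursors, endothelium and neurons. Genes named were the 10, called list genes (the 4 with the smallest q where there were more) and the 5 nearest to Il1a; further genes were picked once their values had been seen. The alternatives tried were other q thresholds, a fold minimum of 1.5, Bonferroni adjustment, protein-coding genes alone, other SEs for tied genes and other centring.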

Additional observations from a re-analysis of the deposited data

Results flagged for a closer look

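The CDS effect on Il1a differed between the times under the SE assumed at 12 weeks. Its log2 fold change at 12 weeks minus that at 5 days was 2.12 (SE 0.42, Benjamini-Hochberg adjusted p = 0.000444 from a z test across all genes), from -2.17 at 5 days to -0.05 at 12 weeks in the authors' deposited tables. With the SE of tied genes 1.5 times as large, the adjusted p was 0.0562 across all genes, and the call was lost. The same test called 13 of 19 microglia markers, a list chosen with earlier results of these data known, all in the same direction as Il1a. All 10 genes had the same z test, made gene by gene, and Il1a was the only one past the threshold, which 0.432% of all genes passed. Directions within single samples are not given by the tables.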

How the results depend on the processing

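At 5 days, 4 of the 10 genes were called. The count was 2 under Bonferroni adjustment (Il1a and Pycard), with 1.07% of all genes called. It was 3 (Il1a, Pycard and Nlrp3) at q under 0.01, with 2.94% of all genes called. The same 3 were left with a fold of at least 1.5, with 2.96% of all genes called. Over protein-coding genes alone it was 5 (Il1r1 added), with 7.73% of those genes called. At q under 0.1 it was 6 (Casp1 added too), with 8.61% of all genes called. At 12 weeks it was 0 under each of these, where the share called ran from 0.0982% (Bonferroni, all genes) to 0.252% (protein-coding genes alone). For the difference between times, 1 gene passed. The count was 3 with the smallest SE that the tied q allows, where 3.95% of all genes passed. Nlrp3 and Il18 were added there (adjusted p = 0.000426 and 0.00578 from the z test across all genes). It was 2 at an adjusted p under 0.1 (Nlrp3 added), with 0.618% of all genes passing. Under Bonferroni adjustment it was 1, with 0.147% of all genes passing. With 1.5 times the SE of tied genes it was 0, with 0.152% of all genes passing. Il1a then had an adjusted p of 0.0562 from the z test across all genes. Larger and smaller assumed SEs change that test by construction. Centring on the median of all or of protein-coding genes moved values by at most 0.02 and turned no direction. Leaving out replicates was not run. No paired analysis was possible because the tables hold no values per sample. The tables give no depth, so a limit of detection cannot be stated.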
